A study of Mus musculus with 8 samples.

Results

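The genes described here move iron into, within and out of brain cells: Trf, Tfrc, Slc11a2, Fth1, Ftl1, Slc40a1, Cp and Heph. They were chosen by name from the deposited table, in which they are 8 of 55401 genes, and all 8 were among the 16894 genes tested. Levels were read in 8 mouse hypothalami collected on postnatal day 19, and the sources used here give neither strain nor genotype. The pups of one group had received vehicle by gavage and those of the other PLX3397, an inhibitor of the receptor CSF1R on which microglia depend, in both cases from postnatal day 9 until day 15. Libraries F1 and F2 of a group came from 2 females and M1 and M2 from 2 males. The question of the series is what microglia contribute to the hypothalamus as it matures after birth. Gavage delivers the compound to the whole animal and not to the hypothalamus alone.

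Iron reaches most cells bound to transferrin (Trf), which is taken up by the transferrin receptor (Tfrc), and the transporter encoded by Slc11a2 then passes the iron out of the endosome. Ferritin, a shell of heavy (Fth1) and light (Ftl1) chains, stores the metal, and ferroportin (Slc40a1) exports it with the help of the copper ferroxidases ceruloplasmin (Cp) and hephaestin (Heph). In the brain, oligodendrocytes are rich in iron and make transferrin, microglia store iron in ferritin, and astrocytes carry a membrane-bound form of ceruloplasmin.

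Several of these transcripts carry an iron-responsive element, a short hairpin bound by the iron regulatory proteins when iron is scarce. Binding before the coding region blocks translation, and binding after it protects the transcript from decay. The elements are shown because this control acts on the transcript and its translation, and translation is a layer that transcript levels do not read. They were searched in the untranslated regions of GENCODE vM21 transcripts (build GRCm38, the same as mm10), on the transcript strand only. The pattern was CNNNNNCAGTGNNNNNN, in which the 5 bases before the loop had to pair with the 5 after it (A with T, G with C or T). It was found in 4 of the 8 genes, at 7 places, as a description of their letters. Each line gives the element with 6 flanking bases on either side, written 5′ to 3′ as DNA, with the 6 bases of the loop in capitals.
Tfrc, element 1: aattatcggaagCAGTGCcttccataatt
Tfrc, element 2: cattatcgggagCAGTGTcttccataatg
Tfrc, element 3: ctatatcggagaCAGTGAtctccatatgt
Tfrc, element 4: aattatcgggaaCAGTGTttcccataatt
Fth1: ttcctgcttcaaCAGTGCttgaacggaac
Ftl1: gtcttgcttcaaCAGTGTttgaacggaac
Slc40a1: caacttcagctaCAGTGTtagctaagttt
The Tfrc elements lie in the 3′ untranslated region, on the plus strand of chromosome 16, at 32631225 to 32631241, 32631604 to 32631620, 32631669 to 32631685 and 32631716 to 32631732, without the flanking bases. Those of Fth1 (chromosome 19, 9982738 to 9982754, plus strand), Ftl1 (chromosome 7, 45459785 to 45459801, minus strand) and Slc40a1 (chromosome 1, 45925471 to 45925487, minus strand) lie in the 5′ untranslated region. Not every annotated coding transcript holds them. Each Tfrc element was in 1 of 3 transcripts, that of Fth1 in 4 of 5, of Ftl1 in 1 of 2 and of Slc40a1 in 1 of 4. The ferritin windows share 26 of 29 bases, while that of Slc40a1 shares 13 with either of them. Of 21877 protein-coding genes, 0.142% hold the pattern in a 5′ and 0.59% in a 3′ untranslated region. In Trf, Slc11a2, Cp and Heph no match was found, which says only that this pattern is not in their annotated untranslated regions.

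Total counts ran from 54115300 to 60001808 in vehicle and from 55900335 to 67487391 in PLX3397 libraries, and the sex labels matched the data in all 8. Levels are CPM, counts scaled to a common library size with TMM factors, unless FPKM, the authors' value per kilobase of transcript, is named. Markers of the pituitary, the gland below the hypothalamus, 6 in all, summed to 3066 CPM in vehicle F1 and to 4.90 to 14.5 CPM in the remaining 7 libraries. PLX3397 M2 had the lowest sum of mature oligodendrocyte markers, 2367 CPM. Of 11 markers of hypothalamic nuclei none was at 0 in all libraries.

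Cells known to handle iron were represented unequally between the groups. Summed over 10 microglial markers, levels were 229 to 255 CPM in vehicle and 39.3 to 58.4 CPM in PLX3397, and 8 of the 10 fell. For 4 markers of newly formed oligodendrocytes the range went from 546 to 823 CPM in vehicle down to 94 to 167 CPM, and all 4 fell. The 16 mature oligodendrocyte markers summed to 6907 to 10450 CPM in vehicle and 2367 to 5375 CPM in PLX3397, and 5 fell, with negative estimates for all 16. None of these microglial and oligodendrocyte markers was at 0 in all libraries. Sums overlapped between groups for astrocytes (3184 to 3814 and 3400 to 3672 CPM), endothelial cells (232 to 292 and 252 to 281 CPM) and choroid plexus (47.4 to 64.6 and 51.9 to 65.8 CPM). In bulk tissue, fewer cells of a type and less RNA per cell cannot be told apart.

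In vehicle hypothalamus the storage and carrier genes stood highest per length. Fth1 led with 154 ± 7.10 FPKM (mean ± SD, n = 4), above 99.0% of the tested genes, followed by Ftl1 with 99.1 ± 1.56 and Trf with 48.2 ± 9.90 FPKM. Tfrc had 16.7 ± 1.06 and Slc11a2 10.7 ± 0.29 FPKM. Near the bottom of the order were Cp with 1.87 ± 0.053, Heph with 1.67 ± 0.22 and Slc40a1 with 1.22 ± 0.20 FPKM, the last above 17.8% of the tested genes. Only the neighbours Cp and Heph overlapped in their range over the vehicle libraries.

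After PLX3397, the light ferritin chain Ftl1 fell and the ferroxidase Cp rose, whereas the remaining 6 genes did not pass the test over all 8 libraries. Thus 1 of the 8 genes was called higher, against 0.308% of all tested genes, and 1 lower, against 1.83%. The median log2 fold change of the 8 was 0.05, with 5 positive and 3 negative values, while that of all tested genes was −0.00. In Ftl1, Slc40a1 and Cp, 3 of the 8, the 4 PLX3397 values lay outside the range of the 4 vehicle values, as they did for 11.2% of all tested genes.

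**Figure D1:**
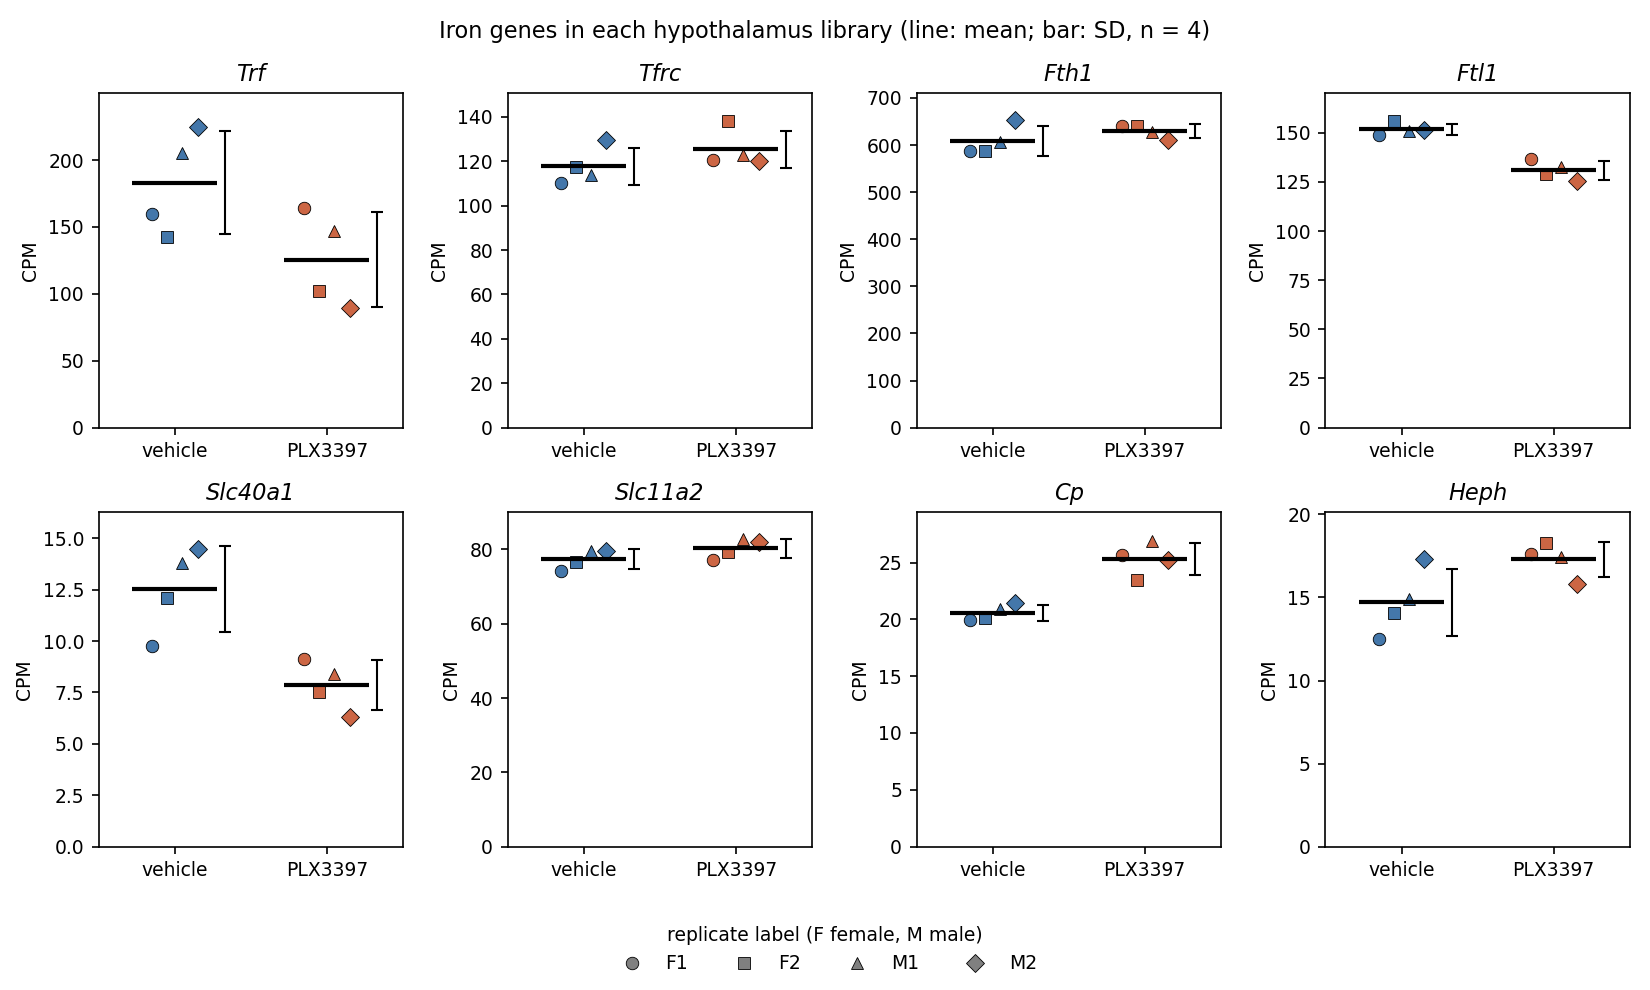
CPM of the 8 iron genes in each hypothalamus library, one panel per gene with an axis from 0; the line is the group mean, the bar beside it the SD (n = 4), and the symbol the replicate label. Ftl1 and Slc40a1 were lower and Cp higher in every PLX3397 library than in any vehicle library, and the other 5 genes overlapped.

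Trf, the plasma iron carrier, lies on chromosome 9 (103204001 to 103230444, minus strand, mm10). It was at 160, 142, 206 and 225 CPM in the vehicle libraries (F1, F2, M1, M2), and at 164, 102, 147 and 89.4 CPM in the PLX3397 libraries in that order. The groups overlapped: PLX3397 F2 and M2 were below every vehicle library, while PLX3397 F1 was above both vehicle females. The log2 fold change was −0.52 ± 0.23 (SE) with an edgeR adjusted p = 0.31. Without PLX3397 M2 it was −0.33 (edgeR adjusted p = 0.482), and without PLX3397 F1 it was −0.75 (edgeR adjusted p = 0.109). The summed markers of mature oligodendrocytes, a cell type that makes transferrin, were lower in PLX3397 in the ranges given above, and their part in the Trf values was not tested.

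The level of Trf was also read against those 16 markers, a ratio chosen after the values were seen and given as a description. Trf amounted to 2.32%, 1.98%, 2.20% and 2.15% of the summed marker level in the vehicle libraries (F1, F2, M1, M2). In the PLX3397 libraries, in the same order, it amounted to 3.05%, 3.08%, 3.61% and 3.78%. Every PLX3397 library was above every vehicle library, with a log2 difference of 0.64 between the group means, so the markers were further below vehicle than Trf was. Markers of the choroid plexus, another source of transferrin, summed to overlapping levels in the groups. Only 5 of these 9 markers had a mean FPKM high enough to be tested, so the sum says little about this tissue. Markers of ependymal cells and tanycytes, 6 in all, summed to 48.1 to 60.5 CPM in vehicle and 34.6 to 62.0 CPM in PLX3397. The part of either cell group in the Trf values was not tested.

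Tfrc, the receptor that takes up transferrin (chromosome 16, 32608920 to 32632794, plus strand), was at 110, 117, 114 and 129 CPM in the vehicle libraries (F1, F2, M1, M2). The PLX3397 libraries had 121, 138, 123 and 120 CPM. Only PLX3397 F2 lay above the vehicle range, and the log2 fold change was 0.09 ± 0.07 (edgeR adjusted p = 0.567). It was 0.06 without vehicle F1, 0.15 without vehicle M2 and 0.03 without PLX3397 F2, with no call (edgeR adjusted p = 0.75, 0.372 and 0.85). Slc11a2, the endosomal iron transporter (chromosome 15, 100387898 to 100424092, minus strand), had 74.2, 76.7, 79.6 and 79.7 CPM in vehicle and 77.2, 79.4, 82.7 and 82.1 CPM in PLX3397. Both PLX3397 males were above and both PLX3397 females inside the vehicle range. Its log2 fold change was 0.05 ± 0.03 (edgeR adjusted p = 0.522).

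Of the ferritin chains, the light one fell and the heavy one did not pass the test. Ftl1, the light chain that helps the iron core form (chromosome 7, 45457944 to 45459884, minus strand), was at 149, 156, 151 and 152 CPM in the vehicle libraries (F1, F2, M1, M2). In the PLX3397 libraries, in the same order, it was at 137, 129, 133 and 125 CPM. All PLX3397 libraries were below all vehicle libraries, and the mean fell from 152 ± 2.90 to 131 ± 4.92 CPM (SD, n = 4). On the log2 scale Ftl1 fell by 0.21 ± 0.04 (edgeR adjusted p = 0.034). Leaving out any 1 library except PLX3397 F1 ended this call, with edgeR adjusted p between 0.06 and 0.116 and log2 fold changes from −0.22 to −0.19. With vehicle F1 and PLX3397 M2 both left out the value was −0.20 (edgeR adjusted p = 0.166). The summed microglial markers, of cells that store iron in ferritin, were lower in all PLX3397 libraries too, and their part in the Ftl1 result was not tested.

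Reads of Ftl1 share sequence with processed copies. The 3 listed copies Ftl1-ps1, Ftl1-ps2 and Ftl2-ps together held 1.69 to 4.91% as many counts as Ftl1 in a library. A small RNA gene model, Gm22133, covers 109 bases inside the last exon of Ftl1 on the same strand, and its count was 25.4% of that of Ftl1. Its log2 fold change was −0.22 (edgeR adjusted p = 0.168). Ftl1 stayed called when the counts of the copies, or of Gm22133 and the opposite-strand Gm10252, were added to it.

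Fth1, the heavy chain that oxidises iron for storage (chromosome 19, 9980598 to 9985092, plus strand), was at 587, 587, 607 and 653 CPM in the vehicle libraries (F1, F2, M1, M2). The PLX3397 libraries had 641, 640, 627 and 610 CPM, all inside the vehicle range. The log2 fold change was 0.05 ± 0.04 (edgeR adjusted p = 0.606), and it ran from 0.03 without PLX3397 F1 to 0.09 without vehicle M2, with no call. The listed heavy-chain copies Fth-ps2 and Fth-ps3 held at most 0.00939% of the Fth1 count.

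The ratio of heavy to light chain transcripts, taken from FPKM, was 1.52, 1.45, 1.56 and 1.67 in the vehicle libraries (F1, F2, M1, M2). It was 1.81, 1.92, 1.83 and 1.88 in the PLX3397 libraries (F1, F2, M1, M2). The groups did not overlap, with means of 1.55 ± 0.088 and 1.86 ± 0.050 (SD, n = 4). The log2 difference was 0.26 against a pooled SD of 0.064, and it stayed between 0.23 and 0.30 when any 1 library was left out. Since both chains enter this ratio, it repeats the fall of Ftl1 and is no separate result.

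**Figure D2:**
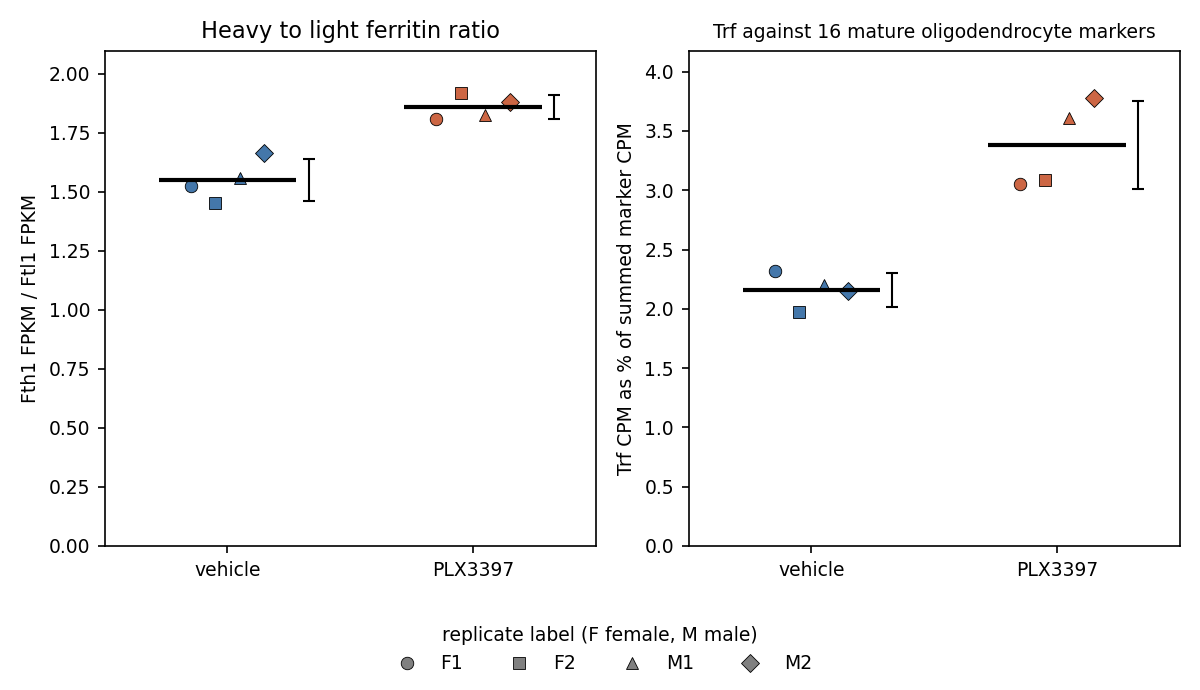
Left, Fth1 FPKM divided by Ftl1 FPKM in each library; right, Trf CPM as a percentage of the summed CPM of 16 mature oligodendrocyte markers; lines are group means, bars the SD (n = 4), symbols the replicate labels, and both axes start at 0. In both panels every PLX3397 library lies above every vehicle library: 1.81 to 1.92 against 1.45 to 1.67, and 3.05 to 3.78% against 1.98 to 2.32%.

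Slc40a1, which encodes ferroportin, the cell's iron exporter (chromosome 1, 45908068 to 45926523, minus strand), was at 9.75, 12.1, 13.8 and 14.5 CPM in the vehicle libraries (F1, F2, M1, M2). It was at 9.14, 7.51, 8.41 and 6.33 CPM in the PLX3397 libraries (F1, F2, M1, M2). All PLX3397 libraries were below all vehicle libraries, though vehicle F1 and PLX3397 F1 were close to each other. The means were 12.5 ± 2.11 and 7.85 ± 1.21 CPM (SD, n = 4), and the estimate was the largest of the 8 in size, a log2 fold change of −0.67 ± 0.16. It missed the threshold with an edgeR adjusted p = 0.1 (unadjusted 0.00394), whereas DESeq2 called it (−0.66, adjusted p = 0.00434). Over the leave-one-out fits it ranged from −0.78 to −0.53, with no call (edgeR adjusted p = 0.0701 to 0.245). Slc40a1 counts were low, 350 to 864 per library. Microglial and oligodendrocyte markers were lower in the same libraries, as were 8 border macrophage markers, which summed to 30.7 to 41.9 CPM in vehicle and 6.72 to 10.5 CPM in PLX3397. Their part in the Slc40a1 values was not tested.

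Cp, the secreted or membrane-bound ferroxidase ceruloplasmin (chromosome 3, 19957054 to 20009145, plus strand), was at 19.9, 20.1, 20.9 and 21.4 CPM in the vehicle libraries (F1, F2, M1, M2). In the PLX3397 libraries, in the same order, it was at 25.7, 23.5, 26.9 and 25.2 CPM. Each PLX3397 library was above each vehicle library, and the mean rose from 20.6 ± 0.69 to 25.3 ± 1.41 CPM (SD, n = 4). The log2 fold change was 0.30 ± 0.06 (edgeR adjusted p = 0.0434). The call ended in each of the 8 fits without 1 library (edgeR adjusted p = 0.0846 to 0.133), although the estimate stayed between 0.27 and 0.32. With vehicle F1 and PLX3397 M2 both left out it was 0.32 (edgeR adjusted p = 0.202). Astrocyte markers summed to overlapping levels in the groups, with 0 of 9 called. Meningeal fibroblast markers summed to 285 to 416 CPM in vehicle and 395 to 562 CPM in PLX3397, with 2 of 10 called higher, and their part in the Cp result was not tested.

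The annotated span of Cp shares 13201 bases with Hps3 on the opposite strand. Hps3 had 53.3% as many counts as Cp, with a log2 fold change of −0.32 (edgeR adjusted p = 0.14). The sources used here do not say if strand was kept, so reads from the shared stretch cannot be assigned with certainty. With the Hps3 counts added to those of Cp, the log2 fold change was 0.08 (edgeR adjusted p = 0.539). This sum takes all counts of Hps3, not only those of the shared stretch. The lower Hps3 level pulls it down however the shared reads were assigned, so it cannot test that assignment. The rise given above is that of the counts as the authors assigned them to Cp.

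Heph, the membrane-bound ferroxidase hephaestin (chromosome X, 96455359 to 96574485, plus strand), was at 12.5, 14.0, 14.9 and 17.3 CPM in the vehicle libraries (F1, F2, M1, M2). The PLX3397 libraries had 17.6, 18.3, 17.4 and 15.8 CPM. PLX3397 F1, F2 and M1 were above the vehicle range, and PLX3397 M2 was inside it. The log2 fold change was 0.24 ± 0.11 (edgeR adjusted p = 0.324). The ribosomal protein pseudogene Rpl17-ps8 lies inside the span of Heph and had 466% of its counts, so reads of that copy could enter the Heph count if they were assigned otherwise.

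**Figure D3:**
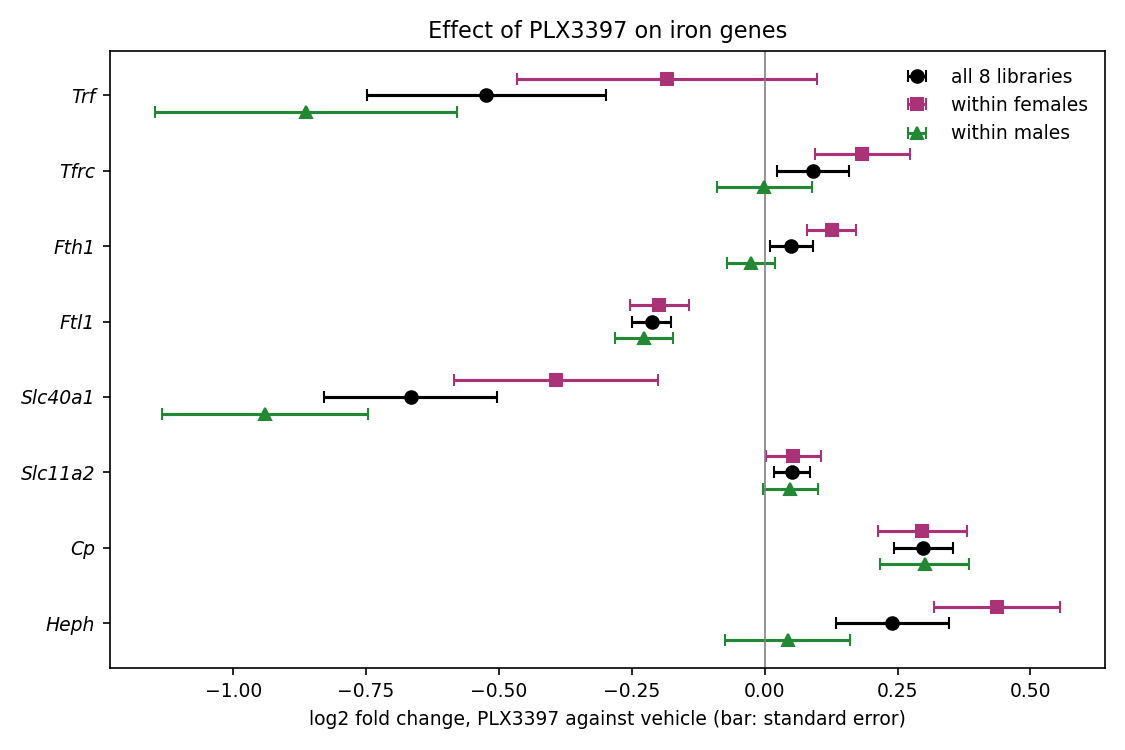
Log2 fold change of PLX3397 against vehicle for the 8 iron genes over all 8 libraries, within females and within males; bars are standard errors of the edgeR fit and the grey line marks 0. Ftl1 and Cp had nearly the same estimate in both sexes (−0.20 and −0.23 for Ftl1, 0.30 and 0.30 for Cp), while those of the other genes except Slc11a2 lay further apart.

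Within a sex, with 2 libraries per group, no iron gene passed the test. The vehicle females include F1, the library with 3066 CPM of pituitary markers. Vehicle F1 had the lowest vehicle level of Slc40a1 and Heph, 9.75 and 12.5 CPM. When it was left out of the fit over both sexes, their log2 fold changes were −0.78 and 0.17. Within females 0 of 8 were called, against 0.361% of all tested genes, and edgeR gave an unadjusted p under 0.05 for 4 of them (Fth1, Ftl1, Cp and Heph) and for 1615 of all tested genes. Within males 0 of 8 were called, against 1.54%, and the unadjusted p was under 0.05 for 4 (Trf, Ftl1, Slc40a1 and Cp) and for 2291 of all genes. DESeq2 called Slc40a1 and Trf lower within males, and none within females. The share of all tested genes that DESeq2 called within a sex was not counted. Over all 8 libraries DESeq2 called 755 genes lower, against 310 by edgeR, so these calls have no background beside them. The log2 fold change of Slc40a1 was −0.39 ± 0.19 within females and −0.94 ± 0.19 within males (edgeR adjusted p = 0.569 and 0.0884). That of Trf was −0.18 ± 0.28 within females and −0.86 ± 0.28 within males (edgeR adjusted p = 0.876 and 0.261). Heph went the other way, with 0.44 ± 0.12 within females and 0.04 ± 0.12 within males (edgeR adjusted p = 0.304 and 0.916). Fth1 had 0.13 ± 0.05 and −0.03 ± 0.05 (edgeR adjusted p = 0.447 and 0.863), and Tfrc 0.18 ± 0.09 and −0.00 ± 0.09 (edgeR adjusted p = 0.569 and 1).

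These sex gaps did not pass a test of their own. The difference of the PLX3397 effect between sexes was called in 0 of the 8 genes, against 0.077% of all tested genes, with edgeR adjusted p = 0.819 to 0.998. Its unadjusted p was under 0.05 in 0 of the 8 and in 1015 of all genes. For Trf, Slc40a1 and Heph the female minus male differences of log2 fold changes were 0.68 ± 0.40, 0.55 ± 0.27 and 0.39 ± 0.17. The smallest unadjusted p of this edgeR test were 0.0528 for Fth1, with a difference of 0.15 ± 0.06, and 0.0531 for Heph. Females against males, with treatment as a covariate, also gave 0 calls among the 8, against 0.0592% of all tested genes (edgeR adjusted p = 0.933 to 0.997). There the unadjusted p was under 0.05 in 0 of the 8 and in 843 of all genes. DESeq2 called none of the 8 in either comparison, and the share of all tested genes it called there was not counted.

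Beyond these 8, 59 genes of iron handling were taken in 6 lists, of which 52 were tested. By edgeR 0 of the 52 rose, against 0.308% of all tested genes, and 2 fell, Slc22a17 and Neo1, against 1.83%. An unadjusted p under 0.05 was reached by 10 of the 52 and by 2743 of all 16894 tested genes. The median log2 fold change was −0.06, with 16 positive and 36 negative values, beside −0.00 for all tested genes. In 7 of the 52 the groups did not overlap, as in 11.2% of all tested genes, so these counts lie near the background.

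Of the uptake and reduction genes 10 of 15 were tested and 1 fell, with a median of −0.02. This was Slc22a17, the receptor for lipocalin-bound iron (chromosome 14, 54906304 to 54913132), at 749, 857, 670 and 676 CPM in the vehicle libraries (F1, F2, M1, M2) and at 602, 455, 419 and 431 CPM in PLX3397. All PLX3397 libraries were below all vehicle libraries, and on the log2 scale it fell by 0.63 ± 0.09 (edgeR adjusted p = 0.014). It passed in 4 of the 8 fits without 1 library, and the call ended without vehicle F2, M1 or M2 or PLX3397 M1 (edgeR adjusted p = 0.054 to 0.0568). With vehicle F1 and PLX3397 M2 both left out it had −0.69 (edgeR adjusted p = 0.0847).

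Among genes of iron sensing and of the hormone hepcidin, 8 of 9 were tested and 1 fell, with a median of −0.15. Neo1, which encodes neogenin, a partner of hemojuvelin and an axon guidance receptor (chromosome 9, 58874687 to 59036441), had 152, 155, 170 and 173 CPM in vehicle and 142, 127, 136 and 139 CPM in PLX3397. Its groups did not overlap, and on the log2 scale it fell by 0.26 ± 0.05 (edgeR adjusted p = 0.0408). It passed only without PLX3397 F1 among the 8 fits that left out 1 library, and the other 7 gave edgeR adjusted p = 0.069 to 0.13. The call also ended without a filter on FPKM (edgeR adjusted p = 0.0687) and with vehicle F1 and PLX3397 M2 both left out (edgeR adjusted p = 0.198). The list also holds Aco1 and Ireb2, the iron regulatory proteins that bind the hairpins printed above, and neither was called.

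The remaining lists held no edgeR call over all 8 libraries. Of the 4 chaperone and ferritin turnover genes 3 were tested, with a median of −0.01. Pcbp1, which delivers iron to ferritin, had a log2 fold change of −0.10 (edgeR adjusted p = 0.178). Ncoa4, the receptor that takes ferritin to the lysosome, had 0.78 with a wide SE of 0.53 (edgeR adjusted p = 0.528), and 1 library of either group lay far from the rest of its group. The estimate was 1.38 without vehicle M1 and 1.20 without PLX3397 M2 (edgeR adjusted p = 0.193 and 0.302).

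All 15 genes of heme synthesis, transport and breakdown were tested, and 12 had negative estimates, with a median of −0.08. Cpox and Alad, enzymes of heme synthesis, had the smallest p, with −0.48 and −0.20 (edgeR adjusted p = 0.0972 and 0.206), and their groups did not overlap. DESeq2 called Cpox lower (−0.48, adjusted p = 0.00344), as did edgeR without vehicle F1 (−0.58, edgeR adjusted p = 0.0319). Only these 2 of 24 alternatives called Cpox, and without vehicle M2 the edgeR adjusted p was 0.24. Erythroid cells are the main site of heme synthesis in the body. Of 7 erythroid markers 4 were tested, with a median log2 fold change of −1.55 and 0 called, and the 7 summed to 32.4 to 203 CPM in vehicle and 29.8 to 64.0 CPM in PLX3397. Their part in the heme gene values was not tested. Of 12 mitochondrial iron and iron-sulfur genes 8 were negative, with a median of −0.03. The iron importer Slc25a28 had −0.17 and the cluster assembly factor Isca2 0.13 (edgeR adjusted p = 0.275 and 0.363). The 4 genes that supply copper to the ferroxidases had a median of 0.03. Among them the copper pump Atp7a had 0.31, with every PLX3397 library above every vehicle library, and Atp7b 0.13 (edgeR adjusted p = 0.241 and 0.529).

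**Figure D4:**
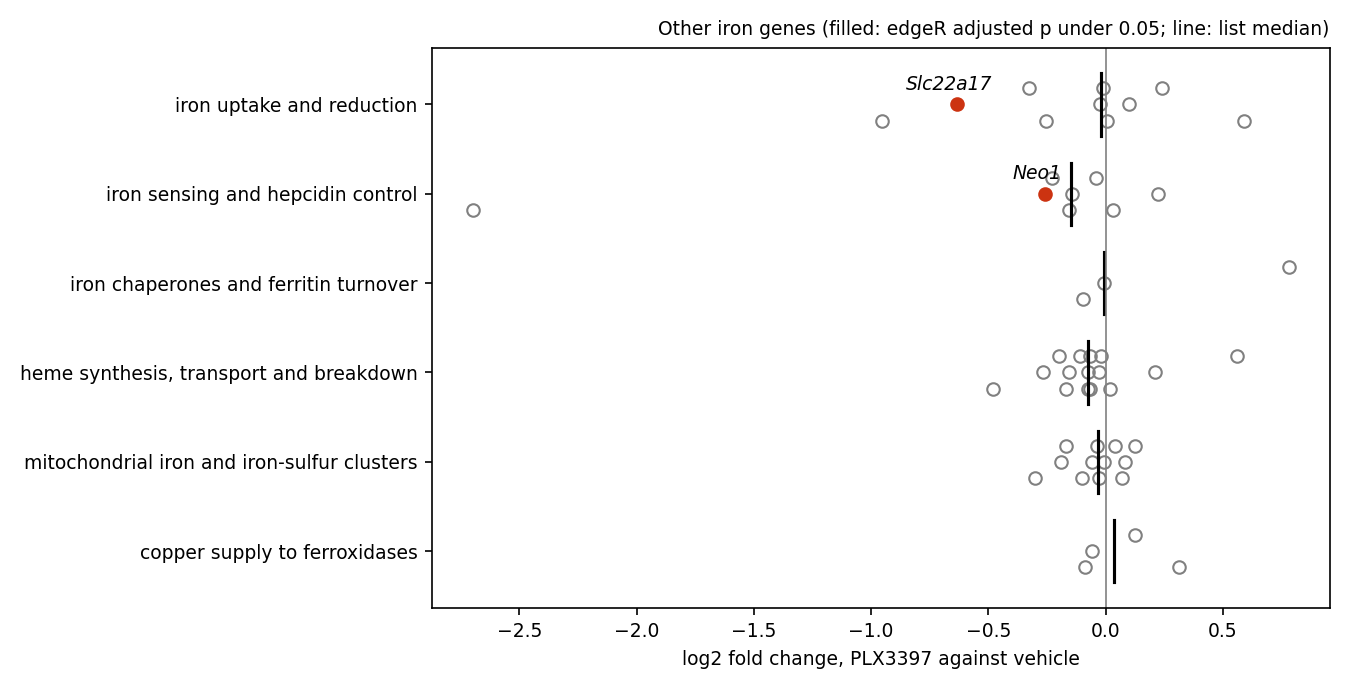
Log2 fold change of PLX3397 against vehicle for the 52 tested genes of 6 iron lists, one point per gene; filled points have an edgeR adjusted p under 0.05, black lines are list medians and the grey line marks 0. Only Slc22a17 and Neo1 are filled, and the list medians run from −0.15 to 0.03.

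Genes whose levels ran most like those of a member over the 8 libraries are given by Pearson's r of log2(CPM + 0.5), without a test, since the libraries share groups and each was picked from all tested genes. For Trf these were Prr5l (0.991), Rdh11 (0.99) and Plekha2 (0.974). Ftl1 ran most like Ly86 (0.994), Snx18 (0.989) and Fmnl2 (0.987). Slc40a1 ran most like Cmtm5 (0.99), Ptprd (0.99) and Dock10 (0.987), and Cp like Erc2 (0.986), Rab6b (0.975) and Postn (0.968). For Tfrc the nearest were Car11 (0.983), Mrps22 (0.95) and Clip1 (0.94), and for Slc11a2 Ackr1 (0.976), the copper pump Atp7b (0.971) and Tpm2 (0.966). Fth1 ran most like Trmt1 (0.957), Ccdc107 (0.947) and Tpmt (0.929), and among the genes nearest to Heph were Abat (0.957) and Acsbg1 (0.949). After the group means were subtracted, 4 genes were again among the nearest 3: Prr5l for Trf, Car11 for Tfrc, and Atp7b and Ackr1 for Slc11a2. Nearest to Trf were then Cfap52 (0.991) and Rsph1 (0.988), ahead of Prr5l (0.986). Ly86 was no longer among the nearest 3 of Ftl1, which were Ndufaf3 (0.965), Ramp2 (0.961) and Cabp1 (0.958).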

How the data were processed

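RNA was sequenced from 8 mouse hypothalami after removal of ribosomal RNA, per the labels' protocols. The deposited table gives, per the file headers, whole-number counts and the authors' FPKM per gene. Build mm10 and the tools bcl2fastq 2.0, HISAT2, StringTie, limma and DESeq2 are listed, without roles, in the submitters' processing notes, and the sources used here name no counting tool or annotation release. A count of 0 has an FPKM of 0.0001 in the deposited table. The design text speaks of 8 hypothalami, so libraries were treated as separate animals.

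Counts were tested with the two-sided quasi-likelihood F-test of edgeR 4.0.16 under R 4.3.3, with TMM scaling and Benjamini-Hochberg adjustment over all tested genes at 0.05. Genes needed a mean FPKM of at least 0.5. Sex was a covariate, and effects within each sex and the interaction were taken from a fit of 4 groups. SE was computed as the size of the log2 fold change over the square root of F. Called means an adjusted p under 0.05. Scripts were tested on simulated data. A count of 0 allows up to 3 counts, 0.0451 to 0.0557 CPM, counting error only. All pairs of same-group libraries differed by more than sampling noise.

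The 8 genes, the iron and marker lists and the rule for named genes were chosen with earlier results of these data known. The rule names the 8 genes, the called genes of each iron list (or the 2 with the smallest p), 3 genes of like pattern per gene, ferritin copies and overlapping genes. Aco1 and Ireb2 are named outside it, and 1 gene within it is not reported here. Alternatives were other filters, scalings, covariates, pseudocounts, DESeq2 1.42.0, limma-trend (limma 3.58.1), a replicate block, added copies or overlapping genes, and left-out libraries. The addition of overlapping genes was chosen after seeing the data.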

Additional observations from a re-analysis of the deposited data

Results flagged for a closer look

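In groups of 4 libraries, 44 of which were examined, 4 held a library far from the others of its group, and chance alone gives about 1 in 20. Tfrc was at 138 CPM in PLX3397 F2 while PLX3397 F1, M1 and M2 had 120 to 123 CPM. Ncoa4 was at 137 CPM in vehicle M1 against 41.3 to 46.0 CPM in the other vehicle libraries, and at 43.1 CPM in PLX3397 M2 where PLX3397 F1, F2 and M1 had 128 to 134 CPM. The light-chain copy Ftl2-ps was at 2.95 CPM in vehicle F1 against 0.594 to 0.791 CPM in the other vehicle libraries.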

How the results depend on the processing

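None of the 8 genes, nor of the 10 other iron genes named, changed direction under any alternative. Over 24 alternatives Ftl1 passed in 14 and Cp in 8, Slc40a1 in 1 of 23 (at a mean FPKM of at least 1 it was not tested), and the other 5 genes in 0. With overlapping genes added, 0 of the 8 genes were called higher, beside 50 of all tested genes. That addition cannot test how reads were assigned to Cp. Rpl17-ps8, which lies in the span of Heph and has more counts than Heph, was not added. Scaling to the total count only gave 0 of the 8 higher, beside 49 of all tested genes. Limma-trend at the pseudocounts 0.5, 0.1 and 1 also gave 0 of the 8 higher, beside 41, 40 and 43 of all tested genes. Without a filter on FPKM, 0 of the 8 were called higher and 0 lower, beside 43 and 262 of all genes. With so few of all genes called, 0 of 8 lies near the background. DESeq2 called 342 genes higher and 755 lower over all libraries, against 52 and 310 by edgeR. Among the 8 it called 1 higher there, Cp, and 2 lower, Slc40a1 and Ftl1. Within males DESeq2 called a different 2 lower, Slc40a1 and Trf. Without vehicle F1 and PLX3397 M2, 18 genes were higher and 105 lower, with 0 and 0 among the 8. Leaving out each library in turn gave 16 to 37 genes higher and 117 to 328 lower, with 0 to 0 of the 8 higher and 0 to 1 lower. The cause was not tested, other than fewer samples in the fits without a library. Slc40a1 had the fewest counts of the 8 genes, as few as 350 in a library.

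With the replicate block, 10 genes were higher and 69 lower, with 0 and 0 of the 8 called (edgeR adjusted p = 0.13 for Ftl1 and 0.138 for Cp). The block also ended the calls of Slc22a17 and Neo1 (edgeR adjusted p = 0.074 and 0.129). Deviations of libraries with the same label correlated at 0.0771, 0.101, 0.0830 and 0.0296 for F1, F2, M1 and M2. Yet 6 of the 8 libraries correlated best with their own label, each compared with the 4 libraries of the other group. Libraries with the same label share a sex, which was not removed from these deviations. The labels do not say that animals were paired, and the main test did not pair them. These values cannot decide if it should have.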
